A study of Homo sapiens with 24 samples.

Results

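The amino acid transporters described here are 34 genes taken from a fixed list of symbols: members of the SLC1, SLC3, SLC6, SLC7, SLC36, SLC38 and SLC43 families and SLC16A10, out of 19775 genes with a probe set named to 1 gene on the array. They were grouped by what they carry. The cystine group held 3 genes, the anionic group 3, the cationic group 5, the group for small neutral amino acids and glutamine 13, the group for large and aromatic neutral amino acids 5 and the lysosomal group 4. SLC43A3, which belongs to the SLC43 family by sequence but carries purine nucleobases, was kept apart. Each gene was read from its probe set of highest mean log2 value over the 24 arrays.

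Amino acids cross membranes mainly on carriers. Among these are exchangers, which trade an inside amino acid for an outside one, and sodium-driven uptake systems, which load the cell. In proliferating cancer cells the exchangers SLC7A5 and SLC7A11 work only when bound to a heavy chain, SLC3A2, which carries them to the surface. SLC7A11 with SLC3A2 imports cystine, the source of cysteine for glutathione, while SLC1A5, SLC38A1 and SLC38A2 bring in glutamine, and SLC38A9 reports lysosomal arginine to the growth kinase mTORC1. Several of these genes are known targets of ATF4, the transcription factor made when amino acids run short or the endoplasmic reticulum is stressed.

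The study lowered or blocked MCT1, the lactate and pyruvate carrier, in 3 established lines from breast carcinomas without hormone receptors: HS578T, SUM149PT and SUM159PT. Total RNA from 24 samples was hybridised to Affymetrix arrays, 3 arrays in each of 8 groups. In 6 groups, each line received DMSO or the MCT1 inhibitor AZD3965 for 24 hours. The remaining pair of groups were SUM149PT cells infected with lentivirus carrying scramble shRNA or MCT1 shRNA and kept in puromycin at 2 µg per ml for 5 days, so that vector, infection and selection were shared by knockdown and control. Cells of the HS578T line grew in DMEM, whereas both SUM lines grew in F12 medium with insulin, hydrocortisone, EGF and gentamicin, and all media held serum, penicillin and streptomycin. The labels do not give the hairpin's target site, the number of hairpins or the inhibitor's dose. They also do not say whether the 3 arrays of a group came from separate cultures, so that p-values measure only how far these arrays spread, and part or all of that spread may be technical.

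The level of the targeted gene was not analysed here, because the annotation used names no probe set for it alone, so that the knockdown was not checked. Array medians lay between 49.2 and 67.4 signal units. The third scramble shRNA array stood apart from the rest: its actin 3'/5' signal ratio, a measure of RNA integrity, was 53.79 against 1.2 to 2.14 on the other 23 arrays, and its GAPDH ratio was 2.355 against 0.798 to 0.948. Knockdown values of transporter genes that it changes most are therefore given with and without it, and the called genes without it are listed after them. Knockdown values of the cell type markers are given with it only. Under DMSO, CDH1, the epithelial cadherin, was at 8770 signal units in SUM149PT, 4.26 in HS578T and 3.53 in SUM159PT, and ZEB1, a mesenchymal transcription factor, at 86.1, 4890 and 3760. Summed over 7 epithelial markers the signal was 52200 to 54400 in SUM149PT, 7700 to 7990 in HS578T and 9430 to 11400 in SUM159PT. Over 6 mesenchymal markers it was 32200 to 35400, 89900 to 93700 and 59900 to 65000, so that each line had signal from both lists. Single markers did not all follow these sums. KRT14, of the epithelial list, was highest in HS578T under DMSO, at 1880 against 234 in SUM149PT and 9.49 in SUM159PT. FN1, of the mesenchymal list, was at 20400 in SUM149PT, 25500 in HS578T and 16800 in SUM159PT. Of the 7 epithelial markers tested, KRT8 (8560 ± 498 against 5730 ± 1880) and KRT19 (12900 ± 272 against 6100 ± 820) rose with MCT1 shRNA. The summed signal of the 7 was 59900 to 64800 on the knockdown arrays and 46800 to 50500 on the scramble arrays, and its part in the transporter results was not tested. Of the 6 mesenchymal markers, SNAI2 fell (1750 ± 138 against 2330 ± 61.5) and SPARC, dim here, rose (45 ± 5.8 against 11.5 ± 11.3). Their summed signal was 20300 to 25300 on the knockdown arrays and 22900 to 23900 on the scramble arrays. The 4 leukocyte markers summed to at most 149 on either set of arrays.

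The tested set held 27 of the 34 genes, whose mean log2 value was not among the lowest 40 percent of the array's probe sets, a floor of 31.7 signal units. SLC7A10, SLC16A10, SLC38A4, SLC6A14, SLC1A2, SLC38A5 and SLC7A3 lay below it. Nearest inside was SLC6A9 with a mean log2 value of 5.78 and nearest outside SLC7A3 with 5.54. In this text a gene rose or fell where the limma test gave an adjusted p under 0.05 over all 14141 genes tested, log2 differences are of signal plus 16 with their SE, and levels are mean signal ± SD of 3 arrays.

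**Figure D1:**
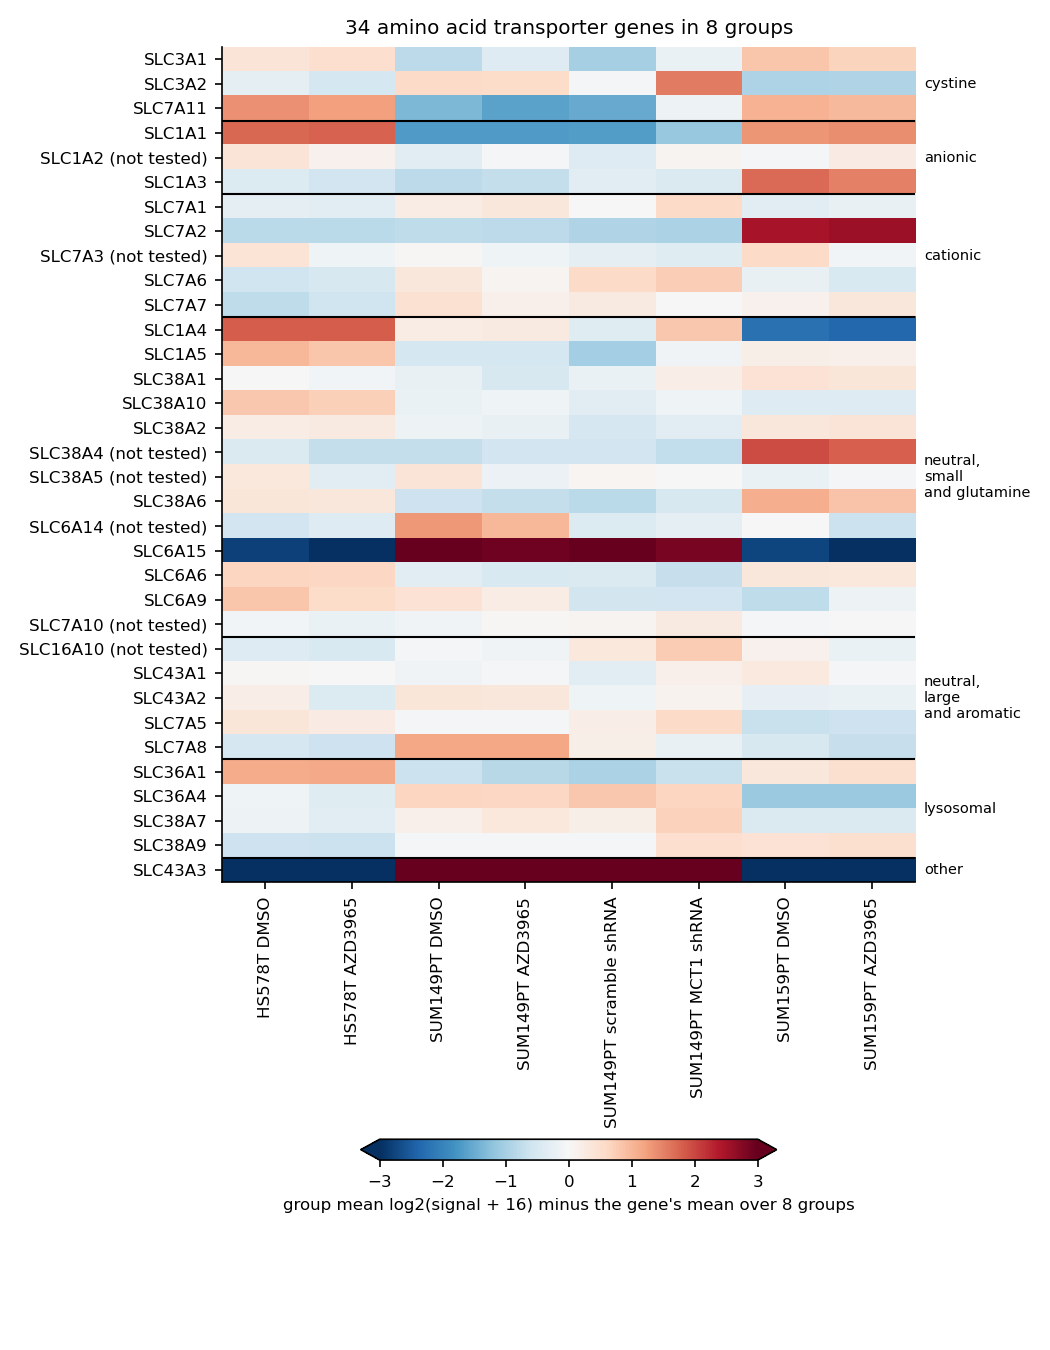
Heat map of the 34 transporter genes (rows, grouped by substrate) in the 8 groups (columns, 3 arrays each): colour is the group mean of log2(signal + 16) minus the gene's mean over the 8 groups, with the scale ending at −3 and 3. Neighbouring DMSO and AZD3965 columns look alike, SLC43A3 and SLC6A15 set SUM149PT apart, and SLC3A2 is highest in the MCT1 shRNA column.

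The largest rises with MCT1 shRNA in SUM149PT were in a shared heavy chain and in carriers of cystine, glutamine and small neutral amino acids. The heavy chain SLC3A2 rose 3-fold and SLC7A11, the cystine and glutamate exchanger, rose 2.67-fold, followed by SLC1A4 at 2.27-fold and SLC1A5 at 1.92-fold. In all, 11 of the 27 tested transporter genes rose and 2 fell, while 14 did not pass. Over all genes the same test called 14.9% (2101 of 14141), with 1021 higher (7.22%) and 1080 lower (7.64%). In bulk RNA, fewer cells with a transcript and less of it per cell cannot be told apart. The median log2 difference was 0.28 over the 27 and 0.00 over all genes tested. By the plainer count of groups that do not overlap, 12 of the 27 were higher on all 3 knockdown arrays than on all scramble arrays and 4 were lower, against 14.6% and 15.2% of all genes. With each array centred on its own median instead, which moved the median of all genes to −0.12, 6 rose and 2 fell, all among the 13, and 23.1% of all called genes were higher, against 48.6% without centring. SLC1A1, SLC38A1, SLC38A6, SLC7A5 and SLC38A7 were the 5 that no longer passed.

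Of the cystine group, 2 of 3 genes rose, among them SLC3A2, a heavy chain that other exchangers share. SLC3A2 gave 9650, 9467 and 9552 signal units on the MCT1 shRNA arrays against 2736, 3226 and 3587 on the scramble arrays. The lowest knockdown array was thus far above the highest control. The log2 difference was 1.59 ± 0.08 (adjusted p = 1.91e-12), and 1.68 without the third scramble array. SLC7A11 gave 1375, 1561 and 1169 against 470, 534 and 534, again with no overlap. Its log2 difference was 1.38 ± 0.10 (adjusted p = 1.48e-09). SLC3A1, the heavy chain of the renal cystine system, was dim: it read 57.7, 41.9 and 63 against 40.7, 22.9 and 12.2. Its arrays did not overlap, but its log2 difference of 0.81 ± 0.29 missed the threshold (adjusted p = 0.0662), passing only when the first scramble array was left out (0.0251).

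Among carriers of small neutral amino acids and glutamine, 4 of 9 tested genes rose and 1 fell. SLC1A4, which exchanges alanine, serine, cysteine and threonine, gave 1068, 930 and 1086 signal units with MCT1 shRNA against 425, 433 and 499 with scramble. Its log2 difference was 1.16 ± 0.14 (adjusted p = 2.56e-06). SLC1A5, the glutamine exchanger of the same family, gave 1015, 1049 and 809 against 505, 525 and 464. For it the log2 difference was 0.91 ± 0.12 (adjusted p = 1.35e-05), and in neither of these genes did the groups overlap.

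The sodium-coupled glutamine carriers of the SLC38 family moved less. SLC38A1 gave 8523, 9856 and 9355 signal units against 6944, 7254 and 6839, clear of each other, with a log2 difference of 0.40 ± 0.08 (adjusted p = 0.00111). SLC38A6 gave 533, 456 and 431 against 363, 416 and 328, also clear, at 0.35 ± 0.11 (adjusted p = 0.0348). Without the third scramble array that call was lost (0.27, adjusted p = 0.145). SLC38A2, the amino-acid-regulated carrier of small neutral amino acids, read 13238, 14193 and 13874 against 11617, 11675 and 13599. Its groups overlapped through the third scramble array, and its log2 difference was 0.17 ± 0.07 (adjusted p = 0.102), or 0.24 (adjusted p = 0.0145) without that array. SLC38A10 (0.18 ± 0.18) and the glycine carrier SLC6A9 (−0.01 ± 0.39) did not pass either. SLC38A10 read 361, 297 and 659 under scramble, where the third array was the high one, and passed without it (0.51, adjusted p = 0.0154).

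In the same group, the taurine carrier SLC6A6 fell. It gave 1345, 1524 and 1390 signal units against 1751, 1826 and 1535 with scramble, a narrow gap between the groups, at −0.26 ± 0.07 (adjusted p = 0.0211). SLC6A15, a carrier of branched-chain amino acids and proline, read 1710, 1723 and 1789 against 2152, 2221 and 2233. These did not overlap, yet the log2 difference of −0.34 ± 0.22 missed the threshold (adjusted p = 0.341) in a test that pools the spread of all 8 groups. It passed with only the 6 arrays compared in the fit (−0.34, adjusted p = 0.0437) and with an offset of 64 (−0.33, adjusted p = 0.0439).

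Of the large neutral group, SLC7A5 rose and SLC7A8 fell. SLC7A5, which imports leucine and other essential amino acids, gave 9482, 9310 and 9869 signal units with MCT1 shRNA against 6972, 5996 and 9446 with scramble. The third scramble array lay inside the knockdown range. With it the log2 difference was 0.38 ± 0.10 (adjusted p = 0.0124), and without it 0.56 (adjusted p = 9.69e-06). SLC7A8, the related exchanger with broader neutral specificity, gave 174, 194 and 212 against 226, 262 and 305, at −0.41 ± 0.14 (adjusted p = 0.0479). Without the third scramble array this was −0.31 (adjusted p = 0.199). SLC43A1 (0.47 ± 0.25) and SLC43A2 (0.23 ± 0.25), facilitators of large neutral amino acids, did not pass.

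In the cationic group, 1 of 4 tested genes rose. SLC7A1, the main arginine and lysine carrier of most cells, gave 9696, 10696 and 10936 signal units against 7850, 7481 and 6105, with no overlap. Its log2 difference was 0.55 ± 0.09 (adjusted p = 2.46e-04), or 0.44 without the third scramble array. SLC7A2, SLC7A6 and SLC7A7 had log2 differences from −0.25 to 0.16, and none passed. SLC7A6 and SLC7A7, like SLC7A5, SLC7A8 and SLC7A11, need SLC3A2 as their heavy chain, so that the heavy chain rose with 2 of its 5 tested exchangers, SLC7A11 and SLC7A5, while SLC7A8 fell.

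The anionic group had 1 gene that rose of 2 tested. SLC1A1, a sodium-driven glutamate and cysteine carrier, gave 306, 262 and 329 signal units against 232, 211 and 162. The groups were clear of each other, and the log2 difference was 0.54 ± 0.12 (adjusted p = 0.00348). SLC1A3, the glutamate and aspartate carrier, gave −0.12 ± 0.18.

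Of the 4 lysosomal carriers, 2 rose. SLC38A9, the arginine-sensing carrier, gave 874, 966 and 1002 signal units against 603, 644 and 702, clear of each other, at 0.53 ± 0.09 (adjusted p = 3.58e-04). SLC38A7, which exports glutamine and asparagine from lysosomes, gave 448, 494 and 476 against 294, 275 and 426, at 0.52 ± 0.15 (adjusted p = 0.0224). The third scramble array of this gene came close to the knockdown arrays, and without it the log2 difference was 0.70. SLC36A1, a proton-coupled exporter (0.28 ± 0.18), and its relative SLC36A4 (−0.18 ± 0.09) did not pass. SLC43A3 was at 8420 ± 79.8 against 9090 ± 1150 and did not pass (adjusted p = 0.807).

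**Figure D2:**
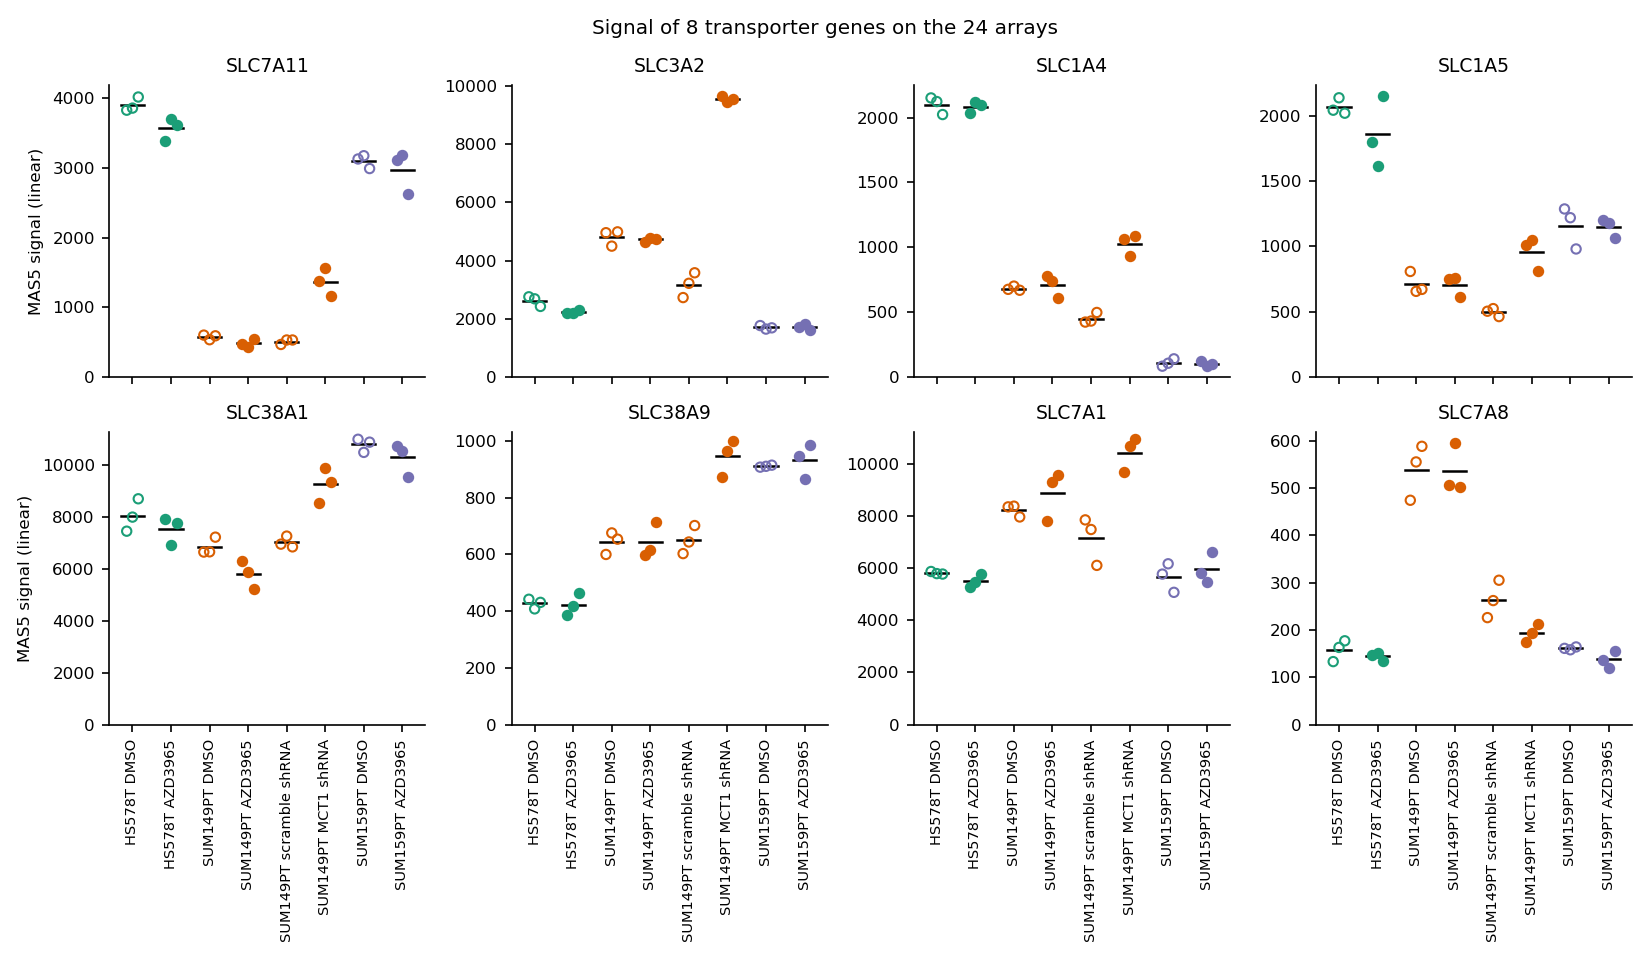
Signal (linear axis from 0) of 8 transporter genes on all 24 arrays: points are arrays, bars are means of 3, open points are DMSO or scramble controls and filled points are AZD3965 or MCT1 shRNA, coloured by line. In SLC3A2 the 3 MCT1 shRNA arrays lie between 9467 and 9650, above all other arrays, while in SLC7A11 they lie above the rest of SUM149PT but below the other lines.

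For 8 of the 13 genes that rose or fell, the call did not rest on any 1 array: SLC3A2, SLC7A11, SLC1A4, SLC1A5, SLC7A1, SLC38A1, SLC38A9 and SLC1A1 passed in each of the 6 fits that left out 1 knockdown or scramble array. With only the 6 arrays compared in the fit, SLC1A1 lost its call (adjusted p = 0.107). The other 5 rested on particular arrays. SLC7A8 passed only without the first scramble array. SLC6A6 lost its call without knockdown array 1 or 3 or scramble array 1 or 2 (adjusted p up to 0.097). SLC38A7 lost it without knockdown array 2 or 3 or scramble array 1 or 2 (up to 0.102). For SLC38A6 these were knockdown array 1 or 2 and scramble array 1 or 3 (up to 0.178). SLC7A5 lost it without knockdown array 3 or scramble array 1 or 2 (up to 0.0859). Without the third scramble array, 12 genes rose and 1 fell, and 11 of the original 13 were among them. The log2 differences were then 1.41 for SLC7A11, 1.23 for SLC1A4, 0.86 for SLC1A5, 0.38 for SLC38A1, 0.59 for SLC38A9, 0.40 for SLC1A1 and −0.33 for SLC6A6, all still called.

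Other probe sets of the same genes gave a check on the choice of probe set. Of the 13 called genes, 8 had more than 1 probe set above the floor (27 in all), and in each of the 8 these had the same sign. The 5 probe sets of SLC1A4 had log2 differences from 0.60 to 1.66, and the 3 of SLC7A11 from 0.91 to 1.90. Among the genes not called, probe sets of SLC7A6, SLC7A2, SLC38A10, SLC6A15 and SLC36A1 differed in sign. SLC36A1, for instance, read 0.28 on the probe set used and −0.60 on the other, and SLC6A15 ranged from −0.34 to 0.50, so that no direction was read for either. With all probe sets of a gene averaged, those below the floor included, 10 genes rose and none fell. SLC38A9 (0.12, adjusted p = 0.704), SLC38A7 (0.40, 0.0521) and both genes that fell, SLC6A6 (−0.13, 0.733) and SLC7A8 (−0.11, 0.726), then lost their calls, while SLC38A2 gained one (0.29, 0.00272). The further probe set of SLC38A9, below the floor, was at −0.29.

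**Figure D3:**
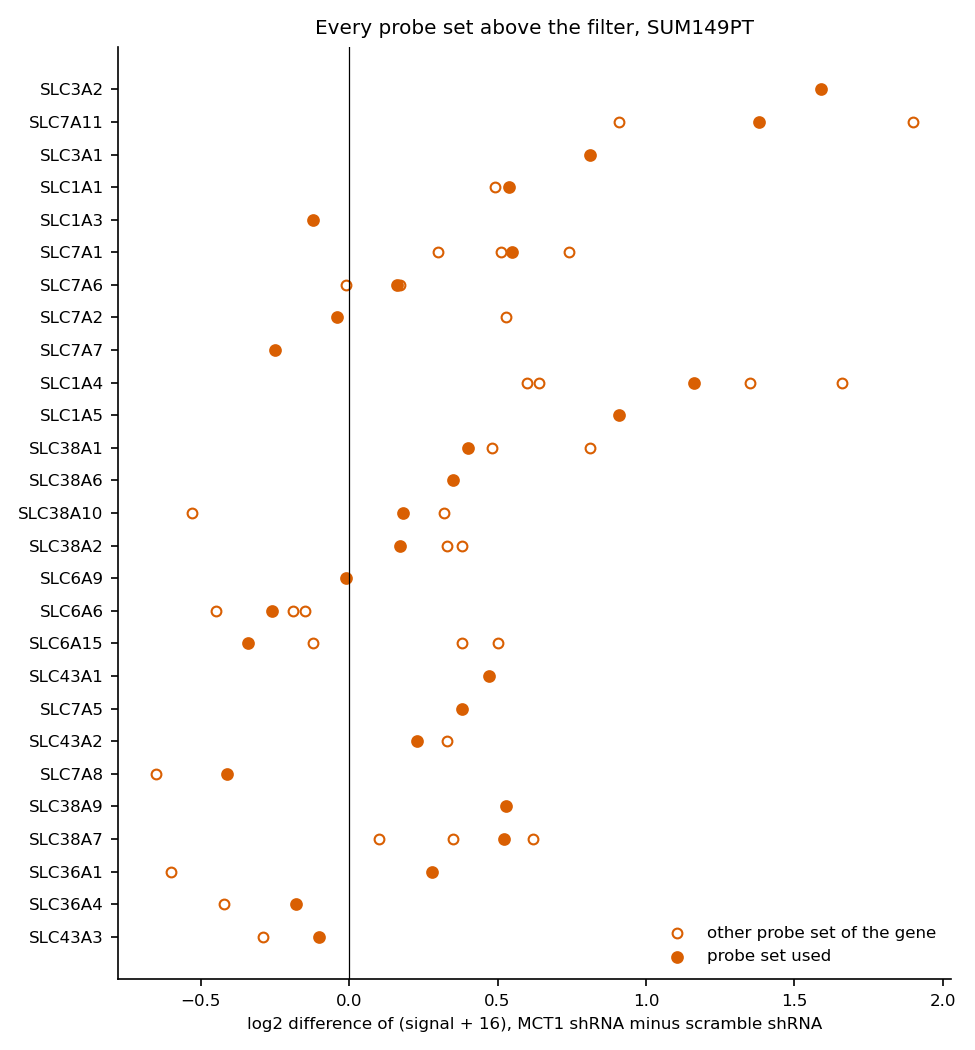
Log2 difference between MCT1 shRNA and scramble shRNA (x axis) for every probe set above the floor of the 27 tested genes (rows): filled points are the probe sets used, open points the other probe sets of the same gene. The probe sets of SLC7A11 span 0.91 to 1.90 and those of SLC1A4 span 0.60 to 1.66, all above 0.

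The promoters of the transporter genes, called or not, were searched for the core of the C/EBP-ATF composite element, TGATGNAA. ATF4 with a C/EBP partner is known to bind at this sequence. Both strands were searched from 250 bases before to 50 after each annotated RefSeq start (GRCh38.p14). Windows were given for 26 of the 34 genes, 47 in all. SLC1A2, SLC3A1, SLC43A3, SLC6A15, SLC6A6, SLC7A11, SLC7A2 and SLC7A3 had none. The core was found in 6 of the 47 windows, those of SLC1A3, SLC1A4, SLC1A5, SLC38A1, SLC3A2 and SLC7A1, and in 3.62% of all 35116 windows. It is shown for the 4 of largest change among the called genes that hold it, with the match in capitals and the gene's strand read 5′ to 3′. In SLC3A2 and SLC1A4 the match is the reverse complement.
SLC3A2 (chr11:62881726-62881748, plus strand): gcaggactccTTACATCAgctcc
SLC1A4 (chr2:64989362-64989399, plus strand): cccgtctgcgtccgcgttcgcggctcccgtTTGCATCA
SLC1A5 (chr19:46784874-46784941, minus strand): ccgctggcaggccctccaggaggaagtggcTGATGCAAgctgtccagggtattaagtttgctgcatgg
SLC7A1 (chr13:29595664-29595691, minus strand): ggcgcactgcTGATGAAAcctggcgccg
The match began 37 bases after the annotated start in SLC3A2, 7 before it in SLC1A4, 97 before it in SLC1A5 and 7 after it in SLC7A1. SLC3A2 and SLC1A5 have 3 windows each and SLC1A4 has 2, and in each gene only 1 window held the core. SLC1A3, which also holds the core, did not pass the knockdown test (log2 difference −0.12). For comparison, the core of the antioxidant response element, TGACNNNGC, was in 7 of the 47 windows (13.35% of all windows), and the E-box CACGTG was in 8 (7.26% of all). Such matches describe the letters only.

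The levels under scramble shRNA differed from those of cells without virus under DMSO. Across SUM149PT controls, a comparison added after the values were seen, 5 of the 27 genes were lower with scramble shRNA than with DMSO and 1 was higher, where 33% of all genes differed (15.3% lower and 17.7% higher). SLC3A2 was at 3180 ± 427 against 4820 ± 275 (log2 difference −0.60 ± 0.08). SLC1A4 was at 452 ± 40.8 against 683 ± 17 and SLC1A5 at 498 ± 31.6 against 713 ± 83.8. SLC7A8 was at 264 ± 39.7 against 539 ± 58.5 and SLC38A2 at 12300 ± 1130 against 15500 ± 260. SLC1A3 was the gene that was higher. Without the third scramble array 7 genes were lower and none higher: the same 5 with SLC6A9 (−1.26) and SLC38A10 (−0.42), while SLC1A3 lost its call (0.48, adjusted p = 0.0805). The summed signal of the 4 leukocyte markers, mostly CD14, was 395 to 454 under DMSO and 83.7 to 130 with scramble, and its part was not tested. Infection, selection, culture time and the separate experiment cannot be told apart in this difference.

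Set against those DMSO arrays instead, MCT1 shRNA still had SLC3A2 higher (0.99 ± 0.08), SLC7A11 (1.21 ± 0.10), SLC1A4 (0.58 ± 0.14) and SLC1A5 (0.41 ± 0.12), the last with overlapping arrays. The rises in SLC3A2, SLC7A11, SLC1A4 and SLC1A5 were thus smaller by this control, with the least change in SLC7A11. SLC7A8 was lower by more (−1.40 ± 0.14), and SLC38A2 was lower rather than higher (−0.18 ± 0.07, adjusted p = 0.046). In this comparison 15 of the 27 passed, 12 of them also against scramble, where 34.9% of all genes passed. SLC38A6, at 0.14 (adjusted p = 0.341), was the called gene that no longer did.

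**Figure D4:**
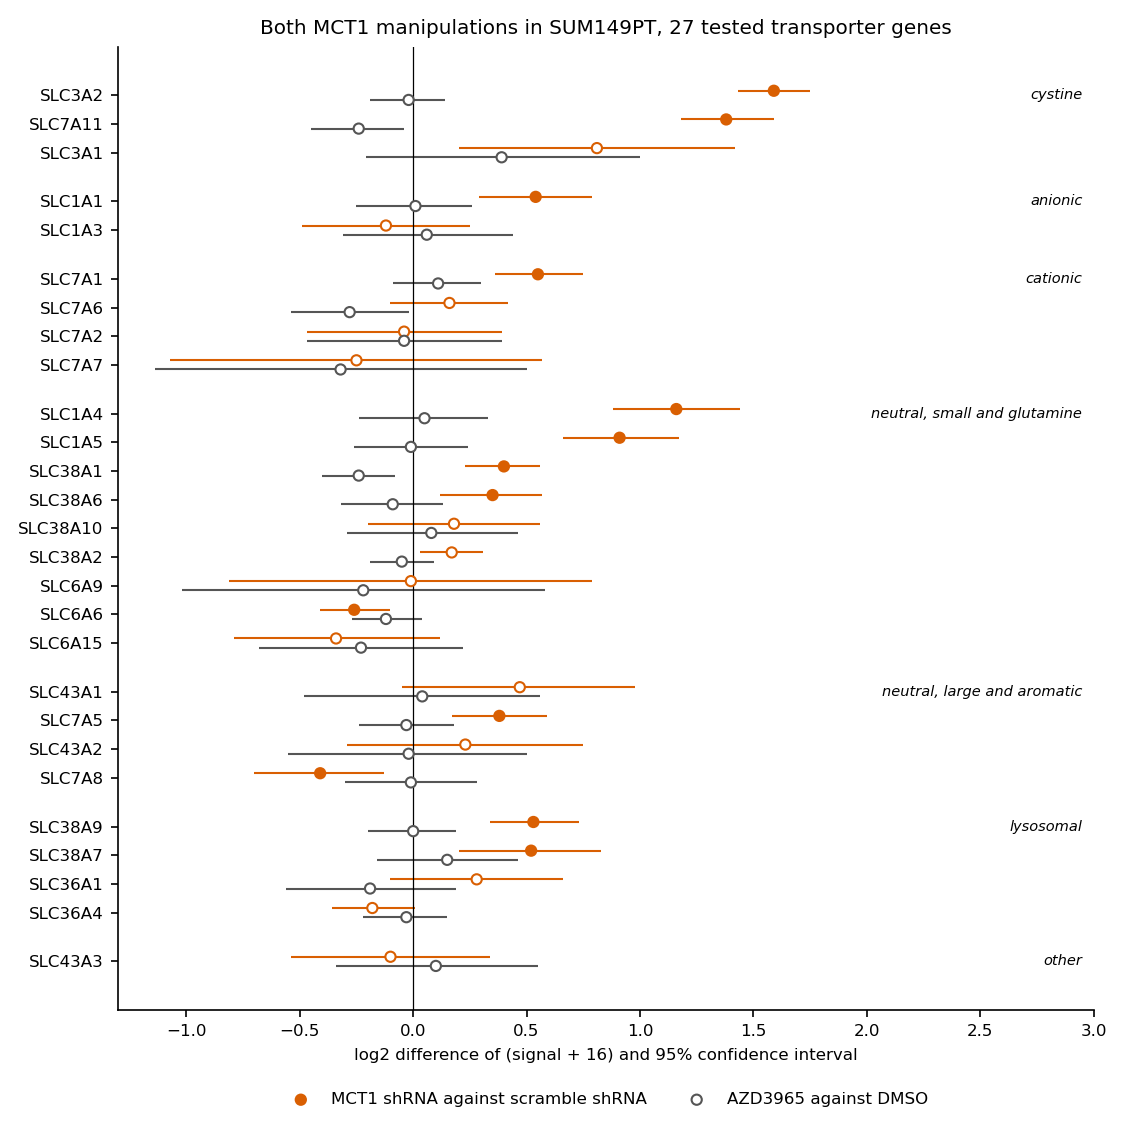
Log2 difference (x axis, with its 95% confidence interval) of the 27 tested transporter genes (rows, by substrate) in SUM149PT for MCT1 shRNA against scramble shRNA (orange) and AZD3965 against DMSO (grey): filled points passed an adjusted p of 0.05. All filled points are orange, from −0.41 for SLC7A8 to 1.59 for SLC3A2, and the grey points lie between −0.32 and 0.39.

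With AZD3965 for 24 hours no transporter gene passed in any line. In the limma test 0 of 27 genes were called in HS578T, SUM149PT and SUM159PT, with 3, 3 and 2 at an unadjusted p under 0.05. Over all genes 43 (0.304%), 4 (0.0283%) and 0 (0%) were called. Log2 differences ran from −0.61 to 0.18 in HS578T, from −0.32 to 0.39 in SUM149PT and from −0.53 to 0.61 in SUM159PT, with the ends of these ranges at the dim genes SLC43A2, SLC7A7, SLC3A1, SLC6A9 and SLC6A15. Averaged over the 3 lines, 0 of 27 were called again, with 3 at an unadjusted p under 0.05 (4 genes called of all, 0.0283%).

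Among genes well above the floor, the AZD3965 differences of smallest p in each line had a negative sign and missed the threshold. SLC3A2 in HS578T read 2220, 2209 and 2296 signal units against 2763, 2693 and 2432 with DMSO, no overlap, at −0.23 ± 0.08 (adjusted p = 0.344). SLC38A1 in SUM149PT read 6299, 5857 and 5208 against 6639, 6648 and 7213, no overlap, at −0.24 ± 0.08 (adjusted p = 0.165). It passed without the first AZD3965 array (−0.31, adjusted p = 0.0399), where 648 genes were called instead of 4. SLC38A6 in SUM159PT read 1322, 1235 and 1058 against 1379, 1350 and 1514, at −0.23 ± 0.11 (adjusted p = 0.728).

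SLC7A11 had a negative estimate in each line, at −0.13 ± 0.10, −0.24 ± 0.10 and −0.06 ± 0.10 in HS578T, SUM149PT and SUM159PT, without passing. In all, 7 of the 27 genes had a negative estimate in all 3 lines and 1 a positive one. Groups without overlap numbered 4, 4 and 3 of 27 lower and 0 higher in each line, where over all genes 10.9%, 8.34% and 6.35% were lower in this way and 8.42%, 12.6% and 6.22% higher. The 3 lines' AZD3965 effects were also compared by an F test, which called 0 of 27 genes, with 0 at an unadjusted p under 0.05 (17 of all genes called, 0.12%).

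In SUM149PT, where both were done, the effects could be set against each other. The difference of the MCT1 shRNA effect and the AZD3965 effect passed for 7 of 27 genes, each with the larger effect under shRNA, where 9.52% of all genes passed, 4.58% with the larger effect under shRNA and 4.94% with the smaller. These were SLC7A11 (1.63 ± 0.14, 95% confidence interval 1.33 to 1.92), SLC3A2 (1.61 ± 0.11, 1.39 to 1.84), SLC1A4 (1.11 ± 0.19), SLC1A5 (0.93 ± 0.17), SLC38A1 (0.64 ± 0.11), SLC38A9 (0.54 ± 0.13) and SLC7A1 (0.45 ± 0.13). On the AZD3965 side the 11 genes that rose with shRNA had estimates between −0.24 and 0.15, with 0.46 the highest upper bound of their 95% intervals. SLC7A1 had adjusted p = 0.0365 and lost its call in 7 of the 12 fits that left out 1 array, among them the fit without the third scramble array (0.34, adjusted p = 0.0925). The other 6 kept theirs in all 12. SLC38A9 lost its call with median centring (0.48, adjusted p = 0.114) and with only the arrays compared in the fit (0.54, adjusted p = 0.052). Without the third scramble array SLC7A5 (0.59, adjusted p = 0.000342) and SLC38A2 (0.29, adjusted p = 0.036) passed as well. The inhibitor lasted 24 hours and the shRNA cells were selected for 5 days, with separate controls, so that agent, duration and experiment cannot be told apart.

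Genes around these transporters were counted from lists. These list counts include the third scramble array and were not repeated without it. Of 27 genes of the amino acid response, 17 rose with MCT1 shRNA and none fell, where 7.22% of all genes rose and 7.64% fell. Their median log2 difference was 0.49. Those of smallest p were ASNS, asparagine synthetase, at 11400 ± 513 against 4820 ± 383 signal units (log2 difference 1.25 ± 0.07), and the stress-induced NUPR1 at 978 ± 90.9 against 250 ± 27 (1.90 ± 0.15). CHAC1, which degrades glutathione, was at 747 ± 70.2 against 172 ± 32.5 (2.03 ± 0.17), and the pseudokinase TRIB3 at 3110 ± 166 against 1770 ± 59.5 (0.81 ± 0.08). This list and the transporter genes overlap in known regulation and were chosen with results of these data known, so that neither supports the other.

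Of 19 further tested carriers, most of them of amino acids, 3 were called, a share near the 14.9% called over all genes. All 3 rose, where 7.22% of all genes rose. They were the lysosomal sialic acid and acidic amino acid carrier SLC17A5 (0.39 ± 0.10), the mitochondrial glycine carrier SLC25A38 (0.31 ± 0.09) and SLC6A19 (1.38 ± 0.42), the last dim and with overlapping arrays. Of 26 genes of lysosomal amino acid sensing to mTORC1, 4 rose and 3 fell, with a median of 0.02 against 0.00 over all genes. These included a fall in SESN1 (−0.73 ± 0.14), a sestrin that restrains mTORC1, and rises in FNIP2 (0.39 ± 0.08), TFEB (0.52 ± 0.13) and TSC1 (0.47 ± 0.12). Another sestrin, SESN2, counted in the amino acid response list, rose, at 417 ± 41 against 131 ± 56 signal units (1.63 ± 0.2). Of 10 genes of glutathione and cystine use 3 were called, with a median of 0.04: HMOX1 (0.58 ± 0.14) and GSS, glutathione synthetase (0.29 ± 0.08), rose and NQO1 (−0.25 ± 0.07) fell. GCLC and GCLM, the subunits of the rate-limiting glutathione enzyme, did not pass (0.20 ± 0.09 and −0.17 ± 0.09). With AZD3965, 0 genes of any of these lists were called in any line.

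Under DMSO the 3 lines differed in the level of most transporter genes, as of most genes: 25 of 27 passed an F test between lines, against 77% of all genes, a share near enough that nothing particular to transporters is read from it. SLC6A15 and SLC6A9 reached the floor only through the line where each was highest, so their calls between lines follow in part from the filter. Without genes of that kind, 23 of 25 passed, against 77.1% of all such genes. These DMSO arrays are also the controls of the AZD3965 comparisons. SLC43A1 (adjusted p = 0.311) and SLC43A2 (0.0877) did not pass. In 22 of 27 the line of highest level had all 3 arrays above both other lines, and in 16 all 3 lines were clear of each other. The highest line was HS578T for 9 genes, SUM149PT for 10 and SUM159PT for 8. Pairwise, 21 genes differed between HS578T and SUM149PT, 17 between HS578T and SUM159PT and 24 between SUM149PT and SUM159PT, where 64.2%, 58% and 59.4% of all genes did. Without SLC6A15 and SLC6A9 these were 20, 16 and 22 of 25. HS578T also had its own medium, which cannot be told apart from the line in both of its comparisons.

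SUM149PT was marked by SLC43A3 and SLC6A15. SLC43A3 gave 8946, 9574 and 8940 signal units in SUM149PT, 47.8, 29.9 and 77.2 in HS578T and 29.1, 64 and 79.4 in SUM159PT. All SUM149PT arrays were far above the others, while HS578T and SUM159PT overlapped. SLC6A15 gave 2140, 2170 and 2171 in SUM149PT against 21.7, 12 and 24.3 in HS578T and 8.75, 21.7 and 34.9 in SUM159PT. Levels this low are near the dim end of the array, so that neither gene was shown to be expressed in the other lines and the size of the difference is not given. SLC7A8 was also highest there, at 539 ± 58.5 against 158 ± 22.4 and 161 ± 2.96, as was SLC3A2.

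Relative to both other lines, SUM149PT was low in SLC1A1 and SLC7A11. SLC1A1 gave 203, 219 and 172 signal units in SUM149PT against 2429, 2146 and 2244 in HS578T and 1674, 1899 and 1555 in SUM159PT. SLC7A11 gave 604, 538 and 594 against 3826, 3856 and 4015 in HS578T and 3127, 3174 and 2990 in SUM159PT. All 3 lines were clear of each other in both genes on the probe sets used. With median centring HS578T minus SUM159PT was no longer called in SLC1A1 (0.32, adjusted p = 0.0774) or SLC7A11 (0.24, adjusted p = 0.0845). With probe sets averaged it was 0.06 in SLC1A1 (adjusted p = 0.789). For SLC7A11 the log2 difference of HS578T from SUM149PT was 2.72 ± 0.10 and that of SUM149PT from SUM159PT −2.39 ± 0.10. After MCT1 shRNA the level in SUM149PT, 1370 ± 196, was still below both other lines under DMSO. SLC3A2 had another order, with 4820 ± 275 in SUM149PT, 2630 ± 174 in HS578T and 1710 ± 61.3 in SUM159PT.

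HS578T was highest in SLC1A4, SLC1A5 and the proton-coupled SLC36A1. SLC1A4 gave 2151, 2123 and 2023 signal units in HS578T, 677, 702 and 670 in SUM149PT and 85.4, 108 and 142 in SUM159PT, so that the highest line had 18.8 times the signal of the lowest. All neighbours in this order were clear of each other (HS578T minus SUM159PT 4.07 ± 0.14, adjusted p = 1.48e-17). SLC1A5 was at 2070 ± 62.7, 713 ± 83.8 and 1160 ± 161, and SLC36A1 at 899 ± 102, 256 ± 40.8 and 518 ± 54.8, in HS578T, SUM149PT and SUM159PT. With probe sets averaged, SUM149PT minus SUM159PT was no longer called for SLC36A1 (−0.22, adjusted p = 0.363).

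SUM159PT was highest in SLC7A2 and SLC1A3. SLC7A2, the inducible arginine carrier, gave 2675, 2449 and 2281 signal units in SUM159PT, 224, 237 and 257 in HS578T and 238, 281 and 233 in SUM149PT. The last pair overlapped, and SUM159PT stood clear of both (HS578T minus SUM159PT −3.28 ± 0.21, adjusted p = 2.11e-12). SLC1A3 gave 1009, 1046 and 818 in SUM159PT against 197, 256 and 183 in HS578T and 141, 176 and 158 in SUM149PT. SLC38A6 (1410 ± 87.8) and SLC38A9 (911 ± 3.39) were highest there too.

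For 4 genes bright in every line, picked after their values were seen, the spread over lines was as follows. The highest line had 1.43 times the signal of the lowest for SLC38A2, 1.58 times for SLC38A1, 1.45 times for SLC7A1 and 2.05 times for SLC7A5. SLC7A5 was at 8340 ± 129 in HS578T, 6300 ± 66.3 in SUM149PT and 4070 ± 347 in SUM159PT, and all 3 were clear of each other. With median centring, HS578T minus SUM149PT was no longer called for SLC7A5 (0.3, adjusted p = 0.058).

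Among the 7 genes below the floor, SLC38A4 read 123, 102 and 125 signal units in SUM159PT under DMSO and at most 18.4 in the other lines under DMSO. SLC6A14 read 67.3, 58.6 and 88 in SUM149PT under DMSO, but 11, 13.4 and 7.14 with scramble shRNA and 13.8, 15.4 and 9.84 with MCT1 shRNA. These genes were not tested, because their mean over all arrays was too low. SLC7A10 read at most 16.6 signal units on any array.

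**Figure D5:**
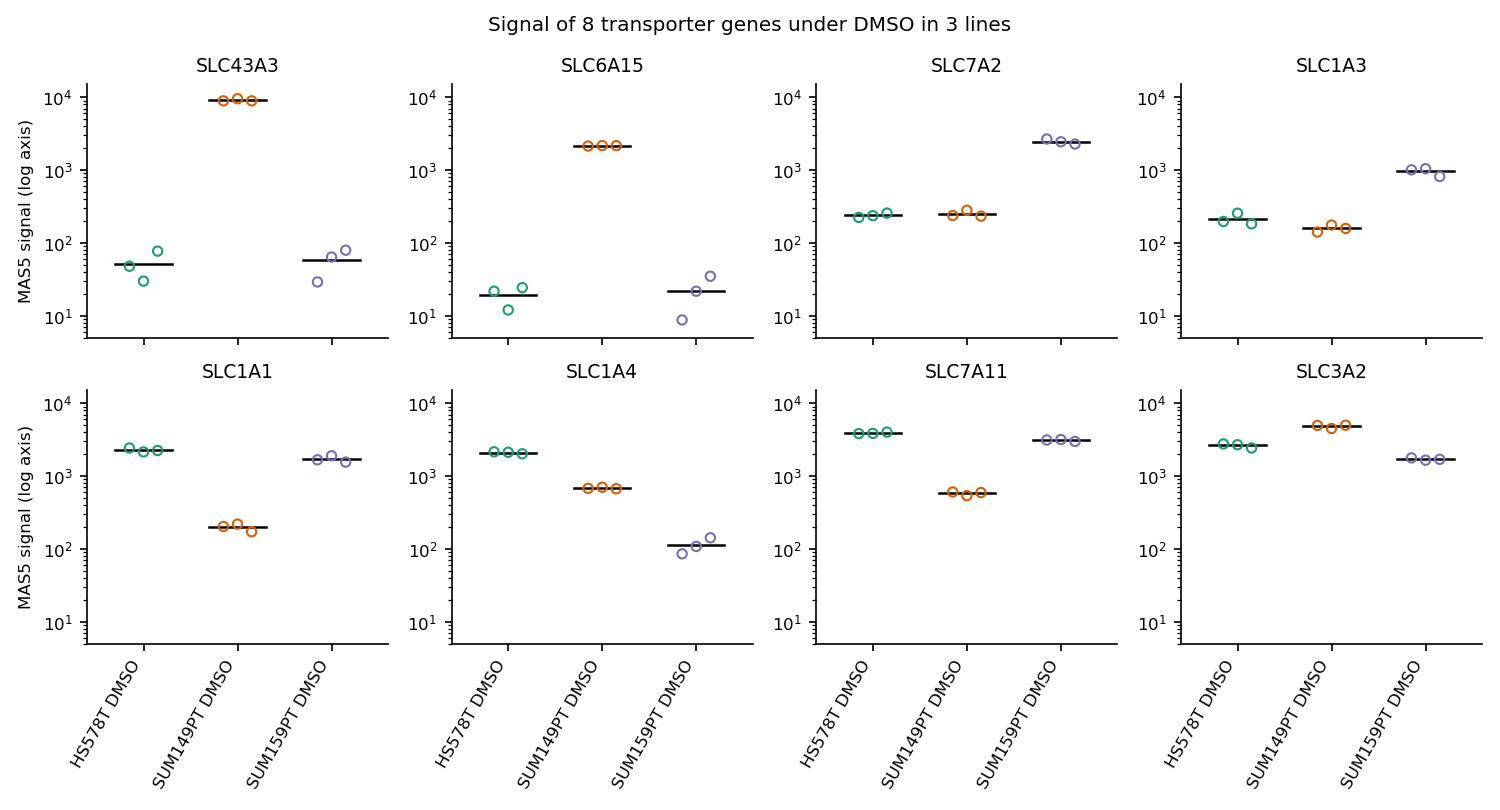
Signal (log axis) of 8 transporter genes under DMSO in the 3 lines, with 3 arrays a line as points and their mean as a bar: SLC43A3 and SLC6A15 are high in SUM149PT, SLC7A2 and SLC1A3 in SUM159PT, and SLC1A4 falls from HS578T to SUM149PT to SUM159PT. SLC1A1 and SLC7A11 are lowest in SUM149PT, where SLC3A2 is highest.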

How the data were processed

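The authors deposited 1 intensity (MAS5 signal, linear) per probe set and array, 54675 probe sets on 24 arrays. MAS5 is named in the submitters' processing notes. The signals of every array have a trimmed mean of 500.1, so scaling was already done and none was added. Probe sets were named through the platform annotation: 41097 had 1 symbol, 1801 several and 11777 none. Symbols were updated by gene ID through RefSeq (GRCh38.p14). Only probe sets with 1 symbol were used, and the probe set of highest mean log2 value stood for its gene.

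Log2(signal + 16) was fitted with limma 3.58.1 (R 4.3.3) with 8 group means on all 24 arrays, no block, and eBayes with a mean-variance trend (16 residual degrees of freedom). Genes whose mean log2 value reached that of the 40th percentile over probe sets entered the test (14141), and p-values were adjusted by Benjamini-Hochberg over all of them, with 0.05 as the threshold. Same-numbered arrays did not deviate together (12 correlations from −0.13 to 0.08, 0 of them over 0.1), so replicate numbers were not used as pairs. The script was tested on simulated data. The number of arrays limits the precision.

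The members and lists were chosen with earlier results of these data known. All 34 members could be named. Values on every array are given for members called for shRNA, AZD3965 or their difference and for those differing most between lines. At most 4 genes of each other list, those of smallest p for MCT1 shRNA, are named. Exceptions are SESN2, GCLC, GCLM and the markers of cell type. These were chosen after their values were seen, as were the uncalled members shown array by array. Offset, normalization, filter, choice of probe set, trend, arrays in the fit, the block and single arrays were varied, for the members and the counts over all genes.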

Additional observations from a re-analysis of the deposited data

Results flagged for a closer look

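In SUM149PT the MCT1 shRNA effect differed from the AZD3965 effect, by a test of the difference itself, for 7 genes. On the log2 scale the shRNA effect exceeded the AZD3965 effect by 1.63 in SLC7A11, 1.61 in SLC3A2, 1.11 in SLC1A4, 0.93 in SLC1A5, 0.64 in SLC38A1, 0.54 in SLC38A9 and 0.45 in SLC7A1. SLC3A1 was picked out by sign: on the log2 scale of signal plus 16, all 3 AZD3965 arrays lay above the DMSO mean in SUM149PT and all 3 below it in SUM159PT. In signal units 1 of the 3 SUM149PT arrays, at 30.9, was below the DMSO mean of 32.7. The effects differed by 0.57 on the log2 scale (SE 0.42), which missed the threshold in limma's test of that difference (adjusted p = 0.998). Groups of 3 arrays are too small for a search for outlying arrays gene by gene.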

How the results depend on the processing

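Of 27 transporter genes, 13 changed with MCT1 shRNA, and the count was 8 with median centring and 8 with only the 6 arrays compared in the fit, where 864 genes were called in place of 2101. With DMSO arrays as the control, an alternative chosen after seeing the data, it was 15, with 4942 genes called. Leaving out 1 array gave 9 to 13. Under the other settings it was 10 to 14.

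For AZD3965 the count was 0 in each line under the settings run, except in SUM149PT, where leaving out 1 array gave 0 to 1. There the count of all genes went from 4 to between 2 and 648, the highest without the first AZD3965 array. In HS578T it went from 43 to 25 with an offset of 64, 26 with probe sets averaged by gene, 28 with only the arrays compared and 15 to 32 with 1 array left out. Median centring raised the higher share of these calls in HS578T from 69.8% to 97.1%. In SUM159PT 0 to 9 genes were called, and 0 to 66 for the average of the lines, against 4. The F test between lines went from 17 to between 3 and 46.

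The difference of the shRNA and AZD3965 effects was called for 7 genes, for 4 with probe sets averaged by gene (854 genes in place of 1346), without SLC7A1, SLC38A1 and SLC38A9, and for 6 to 9 with 1 array left out (874 genes without the first DMSO array). Median centring gave 5 (521 genes) and only the arrays compared 5 (795 genes), in both without SLC7A1 and SLC38A9. The count of genes differing between lines, 25, was 24 to 26 with 1 array left out.

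Among values called under at least 1 of the settings compared, 3 changed sign. SLC38A2 under MCT1 shRNA, not called against scramble, was called at −0.18 with DMSO as the control. With probe sets averaged SLC6A6 in HS578T minus SUM159PT, called at 0.29, was −0.19 (adjusted p = 0.437), and SLC7A6 in scramble minus DMSO, not called at 0.23, was called at −0.22. The cause was not tested. Of the values for single genes under alternatives, 4644 kept their side of the threshold with no called value changing sign, 94 lost a call, 42 gained one and 3 changed sign. The count for scramble against DMSO, 6, was 4 to 8 under the settings run and 5 to 7 with 1 array left out. The replicate block left the 13 shRNA calls at 13 (2029 genes) and the AZD3965 counts at 0 in each line. Same-numbered arrays shared only a number, with correlations of −0.13 to 0.08. Precision is limited by 3 arrays a group, and dim genes near the floor have few signal units behind them.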
